A study of Mus musculus with 12 samples.

Results

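The molecular chaperones of mouse osteoblast-like cells were examined as a group of 74 genes among the 10225 named genes on the array. Members were the genes whose symbol marked them as a heat shock protein (the Hspa, Hspb, Hspd, Hspe, Hsph and Hsp90 names), a DnaJ protein, a subunit of the chaperonin TRiC, a prefoldin, a Bag protein, a protein disulphide isomerase of the Pdia series, calreticulin, calnexin or Xbp1. Membership rests on the symbol and not on a gene's change. They were split by where the protein works into 48 cytosolic and nuclear members, 18 of the endoplasmic reticulum and 7 of mitochondria, and 1 pseudogene, Hspd1-ps3, was kept apart. Of the 74, 71 could be tested. Dnaja4 and Dnajb8 had no value in any sample, and Hspa12b had a value in 2 control samples only (-2.54 and -2.32). Hspa1a, Hspa1b, Hsp90ab1, Pdia3 and Herpud1 were not analysed here.

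The study compared MC3T3-E1 cells, a clonal line from mouse calvaria, under fluid shear and at rest. In the 6 shear samples, confluent monolayers on glass met a flow pulsing at 1 Hz that gave a mean shear stress of 5 dyn/cm2 for 5 h, in alpha-MEM with 1% serum. The 6 control samples stayed static in the same chamber system, and all cells had been grown with 5% serum. Total RNA was labelled with Cy5 or Cy3 and hybridised to 6 spotted arrays of 2 samples each, both from 1 condition. Which samples shared an array is not stated in the labels and was inferred. Whether the samples are separate cultures is not stated in the labels, and the p-values reflect no more than their spread, part of which may be technical. In total RNA from a whole monolayer, fewer cells of a kind and less RNA per cell cannot be told apart.

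Chaperones bind unfolded protein chains and help them to fold. Hsp70 does this in cycles of ATP use, in which DnaJ proteins bring the client and start the cycle, while Bag and Hsp110 proteins release the nucleotide and end it. TRiC, a double ring of 8 kinds of subunit fed by prefoldin, encloses actin and tubulin, and Hsp90 finishes kinases and hormone receptors. In the endoplasmic reticulum the Hsp70 is Hspa5 (BiP), which also holds the sensors of the unfolded protein response inactive, and in mitochondria it is Hspa9, beside the Hspd1 and Hspe1 chaperonin. Osteoblasts secrete large amounts of collagen, which passes through the reticulum.

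Known control elements of chaperone genes were looked up in the RefSeq promoter windows of GRCm38.p6, which run from 250 bases before to 50 bases after a transcription start. A window was found for 62 of the 74 members, including 41 cytosolic, 17 reticulum and 4 mitochondrial members. The endoplasmic reticulum stress element, searched on both strands as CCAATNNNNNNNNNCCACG, is the box bound by Atf6 with NF-Y. It occurred in 6 of the 17 reticulum windows (35.3%), in 0 of the 41 cytosolic and 0 of the 4 mitochondrial windows, and in 37 of all 27025 genes (0.137%). The 7 matches of these 6 genes are printed because they set the reticulum members apart by sequence. Each is shown on the strand of its gene with 20 bases on either side, and capitals mark the element. In Calr and in the second Hsp90b1 match the element lies on the other strand, so the capitals hold its reverse complement.

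Hspa5, chr2:34772005-34772063, plus strand: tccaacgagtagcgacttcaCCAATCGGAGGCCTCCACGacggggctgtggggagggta
Pdia6, chr12:17266471-17266529, plus strand: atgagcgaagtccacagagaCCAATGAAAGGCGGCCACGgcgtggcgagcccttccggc
Dnajc3, chr14:118937807-118937865, plus strand: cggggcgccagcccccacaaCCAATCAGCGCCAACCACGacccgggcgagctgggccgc
Canx, chr11:50325780-50325838, minus strand: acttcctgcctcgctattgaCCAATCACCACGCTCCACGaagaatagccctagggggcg
Calr, chr8:84847055-84847113, minus strand: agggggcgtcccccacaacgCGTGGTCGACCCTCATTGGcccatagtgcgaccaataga
Hsp90b1, chr10:86705618-86705676, minus strand: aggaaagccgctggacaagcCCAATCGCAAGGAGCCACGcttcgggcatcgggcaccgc
Hsp90b1, chr10:86705513-86705571, minus strand: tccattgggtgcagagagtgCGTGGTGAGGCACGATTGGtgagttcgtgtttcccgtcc

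The heat shock element bound by Hsf1, searched on both strands as GAANNTTCNNGAA or TTCNNGAANNTTC, occurred in 4 of the 62 windows (6.45%) and in 179 of all 27025 genes (0.662%). The 4 were Dnajb6, Hsph1 and the divergent mitochondrial pair Hspd1 and Hspe1. The 215 bases between the start of Hspe1 and the nearest upstream start listed for Hspd1 are printed because both genes of the pair share them. They are given on the plus strand, along which Hspe1 is read, and Hspd1 is read from the opposite strand. Capitals mark 2 matches that overlap each other.

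Hspd1 and Hspe1, chr1:55087933-55088147, plus strand: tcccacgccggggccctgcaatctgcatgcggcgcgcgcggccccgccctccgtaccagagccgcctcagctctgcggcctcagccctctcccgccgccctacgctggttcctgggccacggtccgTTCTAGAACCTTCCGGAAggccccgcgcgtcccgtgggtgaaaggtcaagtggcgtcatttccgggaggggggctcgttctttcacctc

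Across the 71 tested members most changes lay above 0, but 1 gene, Dnaja2, passed the adjusted threshold of 0.05 (limma with Benjamini-Hochberg adjustment over 15601 features). None passed it in the lower direction. Of all features 1.28% passed as higher and 0.205% as lower. At an unadjusted p under 0.05, 20 members (28.2%) were higher and 1, Dnajc7, was lower, beside 10.4% and 3.39% of all features. In 16 members every shear sample lay above every control sample and in 1 every shear sample lay below, against 5.76% and 1.6% of all features. The change was above 0 in 58 members (81.7%) and in 61% of all features. The median change of the members was 0.39 on the log2 scale and that of all features 0.11.

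Most members were bright, and bright features were higher more often than all features. Of the 71 tested members, 64 had a mean log2 signal above 0, and among those 19 (29.7%) were higher at an unadjusted p under 0.05, beside 13.5% of the 8262 features that bright. The change was above 0 in 85.9% of these members and in 67.1% of these features, with medians of 0.42 and 0.16. When the 2 samples of an array were averaged, so that 3 arrays stood against 3, 20 members were again higher at an unadjusted p under 0.05 against 9.25% of features, and no member passed the adjusted threshold. With every probe tested on its own, 38 of 132 member probes (28.8%) were higher against 11% of all probes.

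**Figure D1:**
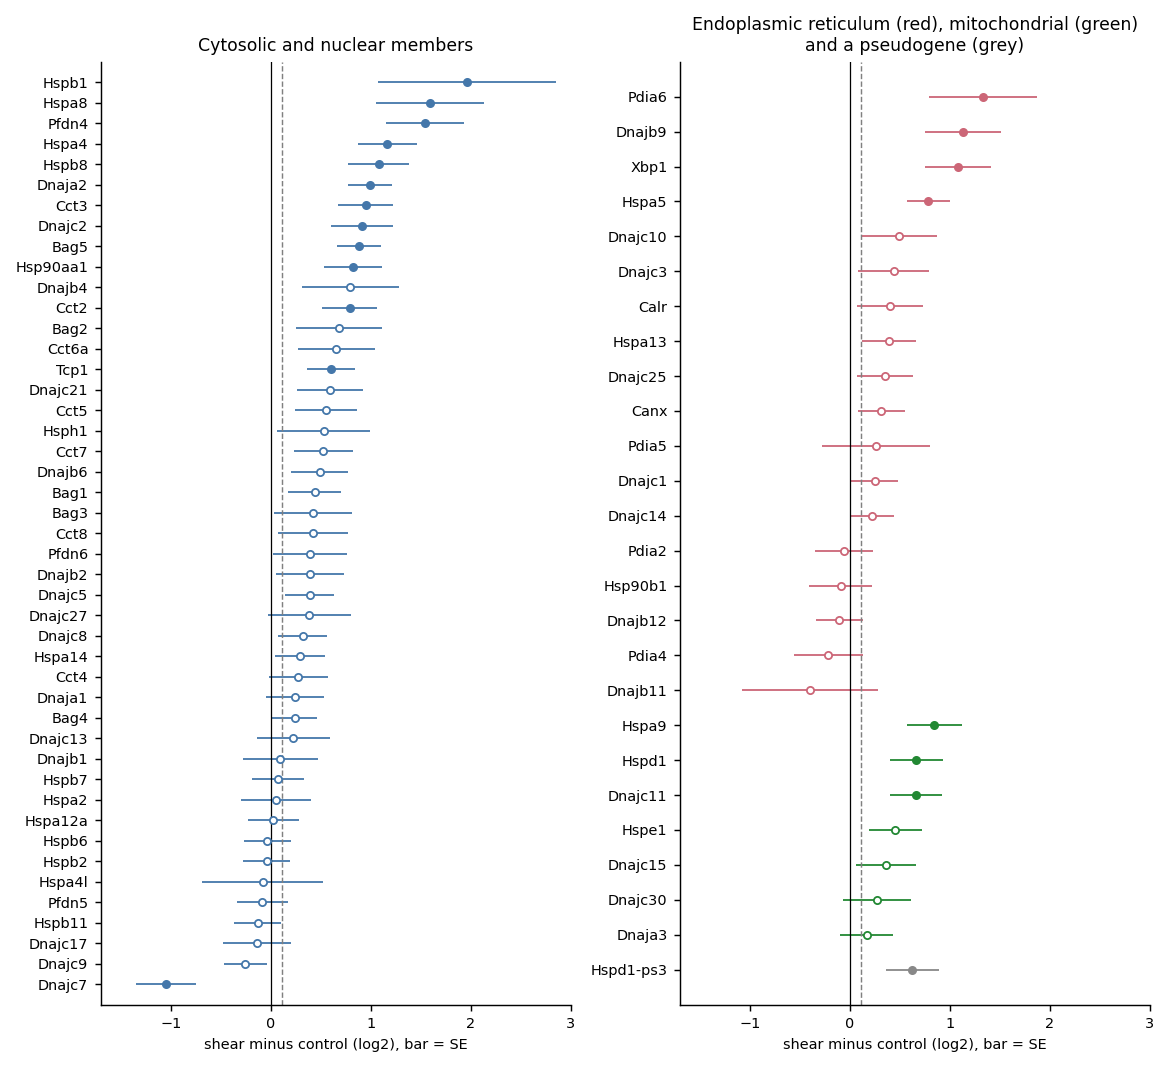
Change in each of the 71 tested members (horizontal axis, shear minus control on the log2 scale, bar = SE of the limma fit), with filled points for an unadjusted p under 0.05 and a dashed line at the median of all features, 0.11. In the cytosolic panel 37 of 45 members lie right of 0, with Dnajc7 alone far to the left, and all 7 mitochondrial members lie right of 0.

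The level of each compartment can be followed sample by sample through the median log2 signal of its members. For the 18 reticulum members this median was 1.26 to 1.50 in the control samples and 1.61 to 2.10 in the shear samples, with no overlap. For the mitochondrial members it was 0.50 to 1.18 in control and 0.78 to 1.36 in shear samples, and for the cytosolic members 1.22 to 1.69 and 1.57 to 2.13. Both of these overlapped. The median of all tested features was 0.14 to 0.25 in control and 0.16 to 0.29 in shear samples.

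Among the 45 tested cytosolic members 12 (26.7%) were higher at an unadjusted p under 0.05 against 10.4% of all features, and 1 was lower. In 10 (22.2%) every shear sample lay above every control, against 5.76% of all features. The median change was 0.42. Over all compartments, samples were so apart in 1 of 3 tested DnaJ A, 0 of 7 DnaJ B, 1 of 17 DnaJ C, 1 of 5 Bag and 1 of 3 Hsp110 members. Dnaja2, a DnaJ protein that hands clients to Hsp70, had log2 signals of 1.50, 1.84 and 2.08 (lowest, median and highest) in the control samples and of 2.50, 2.76 and 3.05 in the shear samples. The groups were well apart. Its change was 0.99 ± 0.22 (SE, n = 6 per group), 1.99-fold, with an adjusted p of 0.0424 in limma. A second Dnaja2 probe rose by 1.16 ± 0.26 and passed too when every probe was tested, with an adjusted p of 0.0384 in limma. The call of the first probe was close to the threshold. Leaving out any 1 sample other than control 4 or control 5 ended it, with adjusted p-values of 0.0528 to 0.0877 in limma, while the change stayed between 0.95 and 1.04. Leaving out any 1 array also ended it, with changes of 0.85 to 1.09 and adjusted p-values of 0.0564 to 0.215. So did each other scaling, with adjusted p-values for Dnaja2 of 0.0929 after centring on fully measured features, 0.115 after quantile normalization and 0.108 after cyclic loess, and averaging each array (0.132).

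Bag5 and Hspa4, which both act as nucleotide exchange factors for Hsp70, came next. Bag5 gave 0.86, 0.88 and 1.01 in shear samples and -0.37, 0.09 and 0.21 in controls. The shear samples were almost level, and the controls lay below them all. Its change of 0.88 ± 0.22 had an adjusted p of 0.0629 in limma, and Bag5 was the member that passed after the centring (0.0499) and after cyclic loess (0.0452). Hspa4, an Hsp110 protein, gave 1.21, 1.46 and 2.13 in control and 2.23, 2.77 and 3.29 in shear samples, again apart. Its change was 1.16 ± 0.29 with an adjusted p of 0.0709 in limma, and a second Hspa4 probe gave 0.52. The other Bag genes had changes of 0.68 (Bag2), 0.44 (Bag1), 0.42 (Bag3) and 0.24 (Bag4), all with control and shear samples overlapping. Hsph1, the inducible Hsp110, gave 0.54, 0.96 and 1.29 in control and 0.78, 1.38 and 2.42 in shear samples. Its change of 0.53 ± 0.46 was within the spread between samples.

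Dnajc7, a co-chaperone with tetratricopeptide repeats that binds both Hsp70 and Hsp90, was the lone member lower at an unadjusted p under 0.05. It gave 2.06, 2.34 and 2.45 in control and 0.51, 1.44 and 1.82 in shear samples. All shear samples lay below all controls, most of all the array of shear replicates 3 and 4 (0.51 and 0.64). Its change was -1.05 ± 0.30 with an adjusted p of 0.107 in limma, and -0.71 without that array. Dnajc9, a histone co-chaperone with a J domain, had the next lowest change among cytosolic members, -0.26 ± 0.22, and its groups overlapped. Dnajc2, which sits on ribosomes and helps Hsp70 to meet new chains, gave -1.61, -0.74 and -0.14 in control and -0.17, 0.04 and 0.31 in shear samples. The ranges met only at their ends, and the change was 0.91 ± 0.31.

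**Figure D2:**
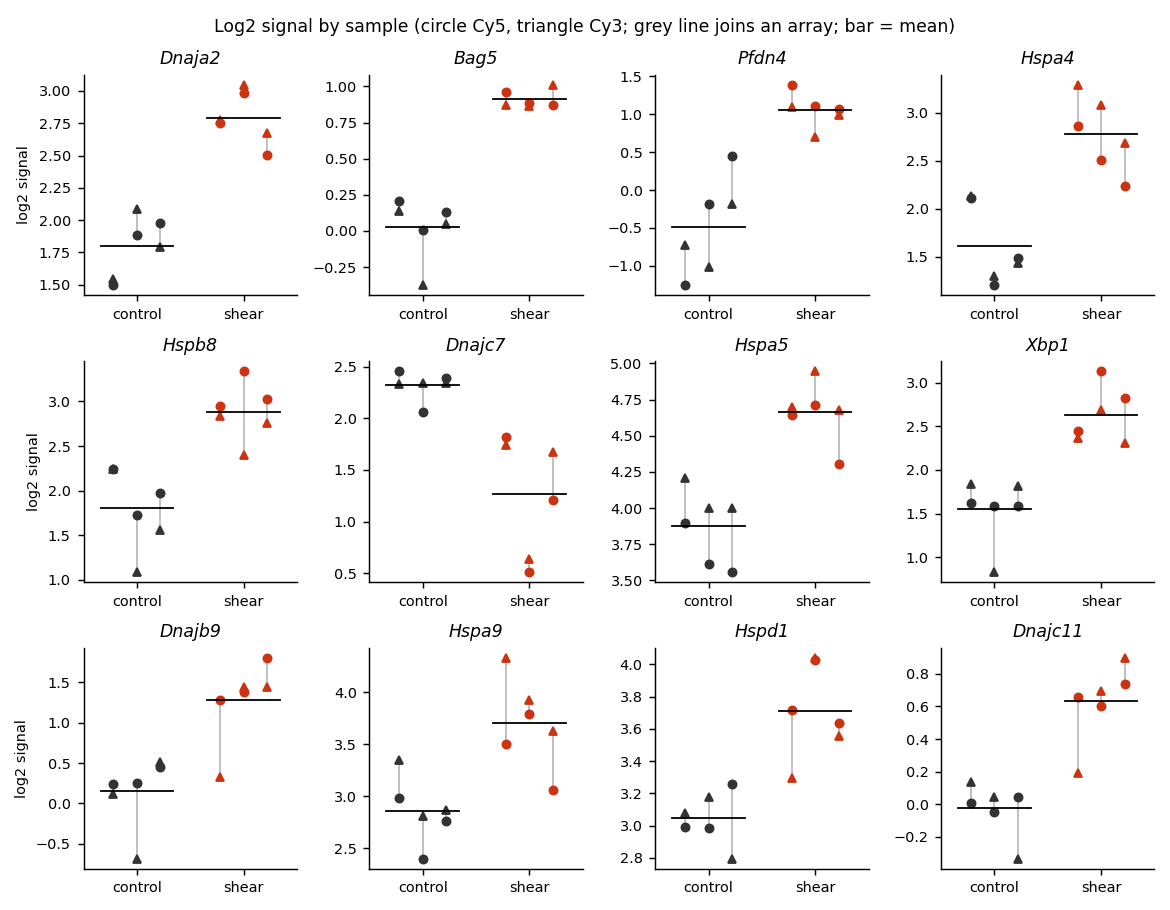
Log2 signal in each sample for 12 members (vertical axis; circles Cy5, triangles Cy3, a grey line joins the samples of an array, the bar is the group mean, 6 samples per group). Groups are apart in every panel but Dnajb9 and Hspa9, and Dnajc7 is the 1 panel with the shear samples lower.

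The constitutive Hsp70, Hspa8, was higher in all shear samples, but 1 control array set the size of the difference. Its control replicates 1 and 2 were at 2.60 and 2.65, whereas the other 4 controls lay between 5.26 and 5.56 and the shear samples between 5.61 and 6.41. The change was 1.60 ± 0.54 with an adjusted p of 0.183 in limma. Without the array of control replicates 1 and 2 it was 0.68. A second Hspa8 probe gave -1.20 ± 0.79, the opposite sign, but it too was divided by a control array. On that probe control replicates 3 and 4 were at 4.63 and 5.08. Its other controls were at 0 to 2.34 and its shear samples at 0.31 to 2.08, so the ranges overlapped. The other tested cytosolic Hsp70 genes had changes of 0.29 (Hspa14), 0.05 (Hspa2) and 0.03 (Hspa12a), the last of which was -0.97 with the mean of its probes. The tested Hspa12a probes were both above 0 (0.03 and 0.27). That mean also took in a dim probe with values in 1 control and 6 shear samples. A brighter probe in it had values in 6 control and 2 shear samples.

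Hsp90aa1, the inducible cytosolic Hsp90, gave 3.02, 3.49 and 3.82 in control and 3.97, 4.39 and 4.48 in shear samples, and the groups did not overlap. The change of 0.82 ± 0.29 had an adjusted p of 0.198 in limma. All 5 of its probes were above 0, from 0.65 to 1.15, and 3 of them had an unadjusted p under 0.05 and 1 had groups that did not overlap. Of these, 4 are spots of 1 clone, with changes of 0.74 to 1.15, so they repeat a measurement and do not sample the transcript anew.

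Dnajb1, the J protein most tied to the heat shock response, was divided by array. Shear replicates 3 and 4, which share an array, were at -0.86 and -0.89, while the other 4 shear samples were at 0.83 to 1.02 and the controls at -0.01 to 0.34. The array with low values is thus below every control and the other arrays are above. The change was 0.09 ± 0.37 with all samples, and 0.69 without that array. Its other probes gave 0.39 ± 0.32 and 0.57 ± 0.19, the latter with all shear samples above all controls. Dnaja1, another partner of Hsp70, gave 0.24, and Dnajb4 0.80 ± 0.49, both with overlapping groups.

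Among the small heat shock proteins, which hold unfolded chains without using ATP, Hspb8 and Hspb1 stood highest and the rest lay near 0. Hspb8, the partner of Bag3 in selective autophagy, gave 1.09, 1.85 and 2.25 in control and 2.40, 2.90 and 3.34 in shear samples. The groups were apart. Its change was 1.08 ± 0.31 with an adjusted p of 0.108 in limma. Its other probes gave 1.17 and 1.69, and the latter passed when every probe was tested (adjusted p of 0.0133 in limma). Hspb1 (Hsp25), which binds actin filaments, had the highest change of all members, 1.96 ± 0.89, with an adjusted p of 0.345 in limma. Its shear replicates 5 and 6, on 1 array, were at 3.36 and -0.04, so the values differed within an array by more than between groups. Leaving out shear replicate 6 gave 2.44 and an adjusted p of 0.0472 in limma, and leaving out shear replicate 5 gave 1.47. Hspb2, Hspb6, Hspb7 and Hspb11 had changes between -0.13 and 0.07. Hspb11 is placed here by its symbol alone, and that does not show that it holds unfolded chains.

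The TRiC ring was measured in all 8 of its kinds of subunit, and on the probes used here all 8 changes were above 0, between 0.27 (Cct4) and 0.95 (Cct3), with a median of 0.58. Of all features 61% were above 0. With the mean of all probes of a gene, Cct5 (-0.32), Cct7 (-0.23) and Cct8 (-0.39) lay below 0, and Cct4 was -0.045 without control replicates 3 and 4. The Cct7 mean took in a probe with values in shear replicates 5 and 6 only (-2.53 and -2.56). All tested Cct7 probes were above 0. At an unadjusted p under 0.05, 3 of the 8 were higher beside 10.4% of all features, Cct3, Cct2 (0.79 ± 0.27) and Tcp1 (0.60 ± 0.24), and none passed the adjusted threshold. Cct3 gave 2.38, 2.81 and 3.11 in control and 3.16, 3.91 and 4.06 in shear samples. Tcp1 gave 3.19, 3.50 and 3.71 in control and 3.93, 4.09 and 4.30 in shear samples. In both the groups did not overlap. Cct6a had values in 4 samples of each group and a change of 0.65 ± 0.39. The median over the ring was 2.70 to 3.18 in control and 3.16 to 3.79 in shear samples, which touch through shear replicate 5. Cct6a, the brightest subunit, had no value in control replicates 1 and 2 or shear replicates 5 and 6. The ring medians of those samples leave it out, so the medians are not over the same subunits in every sample.

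Some subunits of the ring carried probes that disagreed. A second Cct8 probe gave -1.21 ± 0.30, with all shear samples below all controls, whereas the probe used here gave 0.42 ± 0.35. A second spot of the same Cct5 clone gave -1.19 ± 0.89 beside 0.56 ± 0.31. On that second spot shear replicates 3 and 4 were at -1.62 and -1.36. Shear replicates 1 and 2 (3.75 and 3.83) lay above all its controls (1.51 to 3.51), and shear replicates 5 and 6 were at 2.11 and 2.37. The 4 spots of 1 Cct3 clone ranged from 0.46 to 2.23, and the 2 spots of a Cct7 clone gave 0.01 and 0.53. On the Cct3 spot with 2.23, control replicates 1 and 2 were at -0.33 and -0.62 and the other controls at 2.95 to 3.44. The sign was therefore shared by all tested probes for Cct2, Cct3, Cct4, Cct7 and Tcp1, and not for Cct5 and Cct8.

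Prefoldin, which passes new actin and tubulin chains to the ring, had 3 measured subunits. Pfdn4 gave -1.25, -0.45 and 0.45 in control and 0.70, 1.08 and 1.39 in shear samples. The controls were widely spread and still all below the shear samples. The change of 1.54 ± 0.39 had an adjusted p of 0.0709 in limma. Leaving out control replicate 1 or 2 brought it to 0.0498 and 0.0456, with changes of 1.37 and 1.66. Pfdn6 gave 0.39 and Pfdn5 -0.09, both with overlapping groups.

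**Figure D3:**
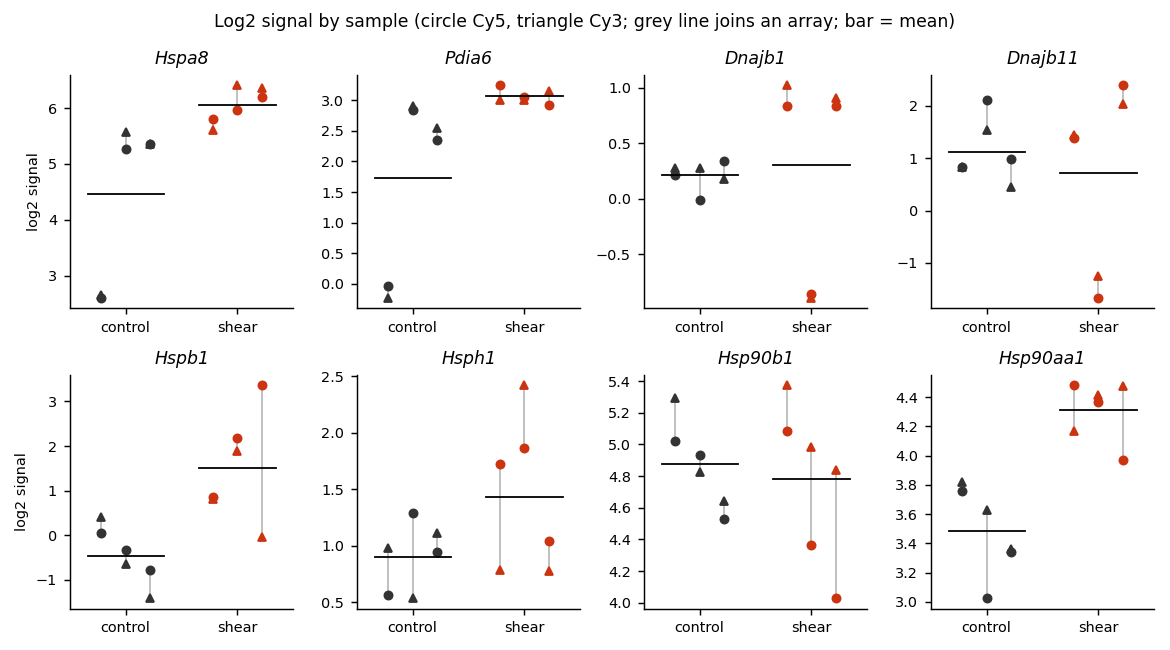
Log2 signal in each sample for 8 members (vertical axis; circles Cy5, triangles Cy3, a grey line joins the samples of an array, the bar is the group mean, 6 samples per group). In Hspa8 and Pdia6 the array of control replicates 1 and 2 lies far below the others, in Dnajb1 and Dnajb11 that of shear replicates 3 and 4 does, and in Hspb1 the samples of 1 shear array lie at 3.36 and -0.04.

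In the endoplasmic reticulum 4 of 18 members (22.2%) were higher at an unadjusted p under 0.05 against 10.4% of all features, none was lower, and none passed the adjusted threshold. The 4 were Hspa5, Xbp1, Dnajb9 and Pdia6. The median change was 0.33. Hspa5 gave 3.56, 3.95 and 4.21 in control and 4.31, 4.69 and 4.94 in shear samples, with the groups apart. Its change was 0.78 ± 0.21 with an adjusted p of 0.0916 in limma. Xbp1, which becomes an active factor of the stress response once Ern1 has spliced its mRNA, gave 0.83, 1.60 and 1.84 in control and 2.31, 2.57 and 3.13 in shear samples, also apart. Its change was 1.08 ± 0.33 with an adjusted p of 0.136 in limma, and the array values do not tell spliced from unspliced Xbp1 mRNA. Dnajb9, a J protein that brings BiP to Ern1, gave -0.69, 0.25 and 0.51 in control and 0.33, 1.41 and 1.80 in shear samples. Only shear replicate 2 (0.33) lay within the control range, and the change was 1.13 ± 0.38.

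Pdia6, a disulphide isomerase, was higher by 1.33 ± 0.54, a size set by the same control array as for Hspa8. Control replicates 1 and 2 were at -0.03 and -0.23, the other controls at 2.36 to 2.91 and the shear samples at 2.92 to 3.25. Without the array of control replicates 1 and 2 the change of Pdia6 was 0.40 with an adjusted p of 0.526 in limma. Dnajb11, a BiP partner in the lumen, had the lowest reticulum value, -0.40 ± 0.68. Its shear replicates 3 and 4 were at -1.67 and -1.26 and the other shear samples at 1.39 to 2.39. The change was 0.69 without that array, and a second Dnajb11 probe, with values in 4 shear samples, gave 0.62 with those 4 above all controls.

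Hsp90b1 (Grp94) gave 4.53, 4.88 and 5.29 in control and 4.03, 4.91 and 5.37 in shear samples, a change of -0.10 ± 0.31, and a repeat spot of the same clone gave -0.64. Calr, a calcium-binding lectin chaperone, had medians of 3.63 in control and 4.10 in shear samples, with the highest control (4.01) above the lowest shear sample (3.67), a change of 0.40 ± 0.33. Canx, its membrane-bound relative, gave 0.31 ± 0.24, with controls at 3.22 to 3.42 and shear samples at 3.38 to 3.87. A second Canx probe gave -0.10 ± 0.42. In these 3 genes the groups overlapped. Pdia4, another isomerase, gave -0.22 ± 0.35. Hspa13, an Hsp70 of microsomes, gave 0.39 ± 0.27 on the probe used and 0.70 ± 0.32 on a second, where all shear samples lay above all controls.

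The genes with the stress element in their window had changes from -0.10 to 1.33. Hspa5 and Pdia6 were among the 4 higher members, Dnajc3 (0.44), Calr and Canx lay between, and Hsp90b1, with 2 matches, had a change of -0.10. The windows of Xbp1 and Dnajb9 held no match to these letters.

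All 7 mitochondrial members had changes above 0, from 0.17 to 0.84 with a median of 0.45, where 61% of all features were above 0. At an unadjusted p under 0.05, 3 of the 7 were higher, beside 10.4% of all features. Dnajc30 did not keep its sign, with -0.26 for the mean of its probes and -0.22 without control replicates 3 and 4. Hspa9 (mortalin), the motor of protein import, gave 2.40, 2.84 and 3.35 in control and 3.06, 3.71 and 4.32 in shear samples. The ranges overlapped a little, and the change was 0.84 ± 0.28 with an adjusted p of 0.171 in limma. Its other probes gave 0.81 ± 0.24 and 1.03 ± 0.59. Hspd1 (Hsp60) gave 2.79, 3.03 and 3.26 in control and 3.29, 3.68 and 4.04 in shear samples, just apart, a change of 0.66 ± 0.26. Its other probes gave 0.06, 0.43 and 0.49, and the lowest and middle of these are spots of the same clone as the probe used. The pseudogene Hspd1-ps3 gave 0.62 ± 0.27, a value that is uncertain because the pseudogene is a near copy of Hspd1.

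Hspe1 (Hsp10), which caps the Hsp60 barrel and shares the printed stretch with Hspd1, gave 2.65, 3.38 and 3.69 in control and 3.34, 3.71 and 4.35 in shear samples. Its change was 0.45 ± 0.27, with overlapping groups. Dnajc11, a J protein of the mitochondrial complex that shapes the cristae, gave -0.33, 0.03 and 0.14 in control and 0.19, 0.68 and 0.90 in shear samples, a change of 0.66 ± 0.26 with the groups apart. Its other probes gave 0.56 and 0.80. Dnajc15 (0.36), Dnajc30 (0.27) and Dnaja3 (0.17) had overlapping groups, and second probes of Dnajc15 and Dnajc30 were below 0.

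**Figure D4:**
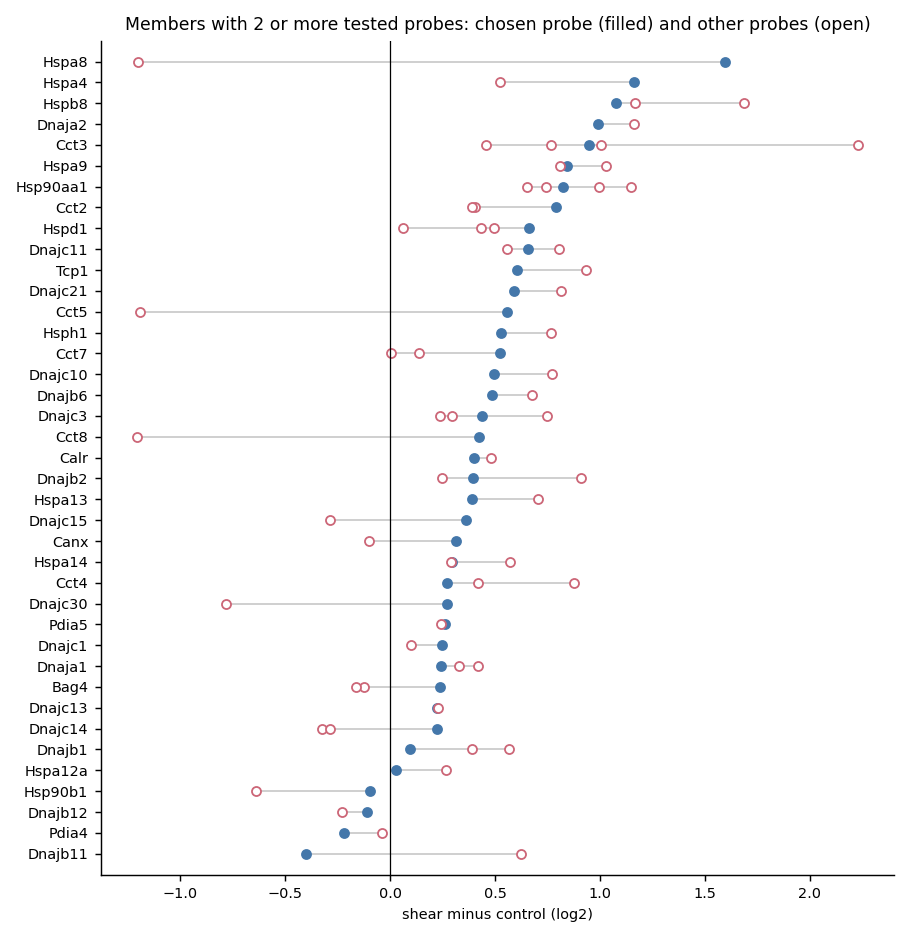
Change of every tested probe of the 39 members with 2 or more tested probes (horizontal axis, shear minus control on the log2 scale; filled, the probe used for the gene; open, its other probes). In 27 genes all probes lie above 0, in 3 all lie below 0 and in 9 they fall on both sides, with Hspa8, Cct5 and Cct8 spread the widest among those.

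Over all genes with several probes, 50 of 61 other probes had the sign of the probe used. The 39 genes divided into 27 with all probes above 0, 3 with all below (Hsp90b1, Dnajb12 and Pdia4) and 9 with both signs.

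The remaining members were not distinguished from 0 by the fit. Of the 50 tested members with an unadjusted p of 0.05 or more, 38 were above 0. Of all 71, 27 had a change above 0.5 and 8 a change above 1, and 1, Dnajc7, was below -0.5. The shares of all features at these cuts were not counted, so these counts are not read as a trait of the members. Over all features 61% of changes were above 0 and the median was 0.11. Among the 17 tested DnaJ proteins of class C, a mixed group united by the J domain alone, 2 (11.8%) were higher and 1 lower at an unadjusted p under 0.05, close to the 10.4% and 3.39% of all features.

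Partners of these chaperones outside the group were read from a list of 68 genes, of which 50 could be tested. At an unadjusted p under 0.05, 5 (10%) were higher and 1 was lower, against 10.4% and 3.39% of all features, so the partners were called higher no more often than other features. Their median change was 0.20. Ptges3 (p23), the co-chaperone that steadies the closed Hsp90 clamp, rose by 1.16 ± 0.24 with an adjusted p of 0.0333 in limma. It was at 0.64 to 1.70 in control and 2.05 to 2.81 in shear samples. Fkbp5, an immunophilin on Hsp90, was at -0.01 to 0.44 in control and 0.50 to 1.36 in shear samples, a change of 0.75 ± 0.25. In neither gene did the groups overlap. Among 26 reticulum partners Selenos, a part of the machinery that exports misfolded chains, gave 1.09 ± 0.37 and Ero1a, the oxidase that feeds disulphides to the isomerases, 0.53 ± 0.24. Ppib, a proline isomerase that works on collagen, gave -1.32 ± 0.58, with shear replicates 1 and 2 at -0.06 and 0.76 and the other shear samples at 2.46 to 2.96. The sensors Atf6 (0.29), Ern1 (0.36) and Eif2ak3 (0.05) all had overlapping groups. So did the response genes Atf4 (0.01), Ddit3 (0.45), Ppp1r15a (0.49), Atf3 (0.79 ± 0.49) and Trib3 (1.17 ± 0.60). Of the 26 reticulum partners 21 (80.8%) had a change above 0 and 5 below, beside 61% of all features above 0. Their median change was 0.26. Of 9 mitochondrial partners, Afg3l2, an inner membrane protease, was higher at an unadjusted p under 0.05 (0.64 ± 0.29).

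The scale used for each array bore on the counts. Centring each sample on the features measured in all samples moved the median of all features from 0.11 to -0.02. It left 14 members (19.7%) higher at an unadjusted p under 0.05 against 7.63% of features, and cyclic loess left 12 (16.9%) against 7.84%. Of the features that passed the adjusted threshold, 86.2% were higher in the fit reported here, 68.6% after that centring and 69% after cyclic loess. The deposited values are relative to medians within each sample, and they cannot show a change of all genes at once.

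**Figure D5:**
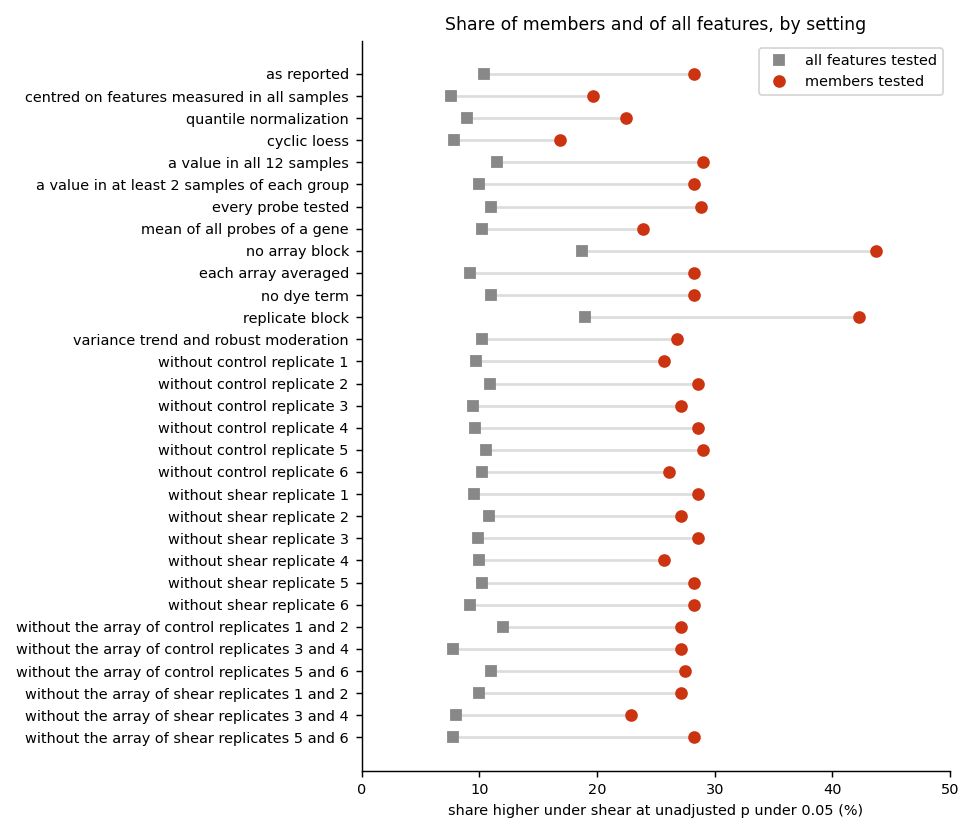
Share higher under shear at an unadjusted p under 0.05 (horizontal axis, percent) among the members tested (circles) and all features tested (squares), for the fit as reported and 30 other settings (vertical axis). The members' share lies right of the share of all features in each setting, from 16.9% against 7.84% with cyclic loess to 43.7% against 18.7% without the array block. The settings without the array block and with the replicate block take the 2 samples of an array as independent, so their p-values can be too small.

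Between 18434 and 23790 features had a value per sample, fewest on the array of control replicates 3 and 4, and the median net fluorescence per sample was 243 to 868. Over features, Pearson correlations were 0.953 to 0.982 within an array, 0.871 to 0.935 between arrays of a group and 0.846 to 0.922 between groups. Correlations were also used to infer the arrays, so the higher values within an array are not independent of that pairing. Of the whole table, 232 features passed the adjusted threshold. Mean log2 signals of the 7 osteoblast markers tested ran from -1.65 (Msx2) to 5.48 (Sparc) in control samples, with Col1a2 at 4.40 and Alpl at -1.01. Of these 7, Lox rose by 2.10 and Dlx5 fell by 0.97. Runx2, Sp7 and Bglap were not analysed here. None of the 4 macrophage, 5 endothelial and 4 adipocyte markers tested had an unadjusted p under 0.05. Their control means were -0.92 to 1.49, -2.06 to 1.35 and -2.13 to 0.75, so signal level alone does not mark the cell type.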

How the data were processed

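The 12 samples were read from 1 table of deposited log2 values, which the authors made from spotted 2-colour arrays, per the labels. The scale was tested on the file: the deposited log2 values are a whole-number net fluorescence over its median in each of 48 blocks of 598 features (100% whole within 0.002). The scanner and the background correction are not stated here. The odd-numbered (Cy5) and the next even-numbered (Cy3) replicate of a group were treated as sharing an array, inferred from dyes, design and the correlations between samples.

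Genes were named from the platform annotation (18511 probes with 1 symbol, 937 with several and 9256 with none, the last 2 kinds not named) and updated through Entrez numbers. The probe measured in most samples, then the brightest, stood for a gene. Of 28704 features, 15601 with a value in at least 4 samples per group entered limma 3.58.1 (R 4.3.3), with fixed effects of group and dye and a random effect of array (correlation 0.737). Each array held 1 group, so 3 arrays stand against 3 while the degrees of freedom count samples, and p-values can be too small. SE is limma's moderated standard error. Adjustment (Benjamini-Hochberg) ran over the 15601 features. The fit was tested on simulated data that gave every feature the same array correlation. That test does not cover features whose arrays differ more, and nothing is concluded from it here. Whole arrays or samples left out, other scalings, filters and probe rules, and a replicate block were tried as alternatives. Replicate numbers did not pair samples (correlations of deviations -0.087 to 0.0984).

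Members and partner lists were chosen with earlier results of these data known. Values are given for members past the adjusted threshold, for up to 6 with the smallest p and 2 with the lowest change in each compartment, and for well-known chaperones, and other members were named after their values were seen. Compartments follow textbook knowledge. Motifs were searched in Python 3.11.15 with pandas 2.3.3, and plots were drawn with matplotlib 3.10.9.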

Additional observations from a re-analysis of the deposited data

Results flagged for a closer look

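In 5 of 68 groups of samples checked, 1 sample lay far from the other 5 by Dixon's test. Chance alone flags about 1 in 20 groups, and samples of an array are not independent. Control replicate 4, on the array with the fewest values, was low for Bag5 (-0.37, next 0.01), Xbp1 (0.83, next 1.59) and Dnajb9 (-0.69, next 0.11). Control replicate 3, on the same array, was low for Dnajc7 (2.06, next 2.33). Shear replicate 2 was low for Dnajb9 (0.33, next 1.28). Whether the array's low coverage bears on these values was not tested.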

How the results depend on the processing

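Counts and compartment medians were recomputed under 30 alternatives and members under 29, except Cct6a (16) and Dnajc27 (22), which had too few values in the rest. The count of features that passed (232) was 133 with quantile normalization, 354 with every probe tested, 1716 with no array block, 72 with each array averaged and 366 with no dye term. It was 117, 123 and 83 without the control array of replicates 1 and 2, 3 and 4, or 5 and 6, and 139, 38 and 67 without the corresponding shear array. Leaving out 1 sample gave 104 to 244. The members higher at an unadjusted p under 0.05 (20) were 12 with cyclic loess, 38 with every probe and 31 with no array block, and those lower (1) were 2 with every probe and 2 with the mean of all probes. The partner genes higher (5) were 3 after centring on fully measured features, 3 with cyclic loess, 10 with every probe, 13 with no array block, 3 or more without 1 sample, 8 without control replicates 1 and 2, 3 without the last control array and 3 without the middle shear array. The reticulum median (0.33) was 0.17 with cyclic loess.

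With a replicate block in place of the array block, 1451 features passed, with 30 members and 13 partner genes higher at an unadjusted p under 0.05. The numbers do not pair the samples. The fit with the replicate block and that with no array block both take the 2 samples of an array as independent, so their counts can be too high.

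The sign turned under at least 1 alternative in 23 of 71 members, among them Hspa12a in 9, Hspa2 in 7, and Cct4, Cct5, Cct7, Cct8 and Dnaja1 in 1 each. Dnajb1 was -0.041 after centring on fully measured features, -0.036 with cyclic loess, -0.22 without the first shear array (replicates 1 and 2) and -0.19 without the last (replicates 5 and 6). Dnajc30 was -0.26 with the mean of its probes and -0.22 without control replicates 3 and 4. Calr was -0.038 with the mean of its probes. Its tested probes, like those of Cct7 and Hspa12a, were all above 0. In these genes that mean drew on different probes in different samples. Hsp90b1 was 0.046 without the first control array, 0.077 without the last shear array and -0.17 to 0.0088 without 1 sample. Dnajb11 was 0.69 without the middle shear array. The cause of these turns was not tested. The 3 arrays per group limit the precision.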
